A study of Mus musculus with 24 samples.

Results

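Alx1, Alx4, Six2, Tfap2a, Tfap2b and Pou3f3 are 6 transcription factor genes of the frontonasal and maxillary face. They were followed across the jaws of mouse embryos lacking Alk5, the TGF-beta receptor encoded by Tgfbr1, in the neural crest. They were chosen by name from the 18193 genes that the array measures by a probe set of 1 gene symbol, and each was represented by its brightest such probe set over the 24 arrays. All 6 were on the array and passed the filter on low values. The arrays were Affymetrix Mouse430_2 and the values are log2 expression after RMA, so a difference of 1 is a doubling.

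The tissue was the maxilla and the mandible at embryonic day 12.5, each cut into a distal and a proximal end. Knockout embryos, labelled Alk5 Knockout on a C57B6 background, gave 4 arrays for each of these 4 parts, numbered 1 to 4, and control littermates gave 2 arrays for each, numbered 1 and 2. Parents were Wnt1cre;Alk5fl/+ and Alk5fl/fl, so each embryo of either group received at least 1 floxed Alk5 allele, and the labels give no further allele for the controls. Mutants were recognised by their cleft palate and defect of the skull vault. Wnt1-Cre acts in the dorsal neural tube and the neural crest, and so in the crest-derived mesenchyme of the face, whereas epithelium, muscle, endothelium and blood keep the receptor. The labels do not say which arrays share an embryo or pool, and if they come from shared tissue the p-values measure technical spread only. In RNA from whole tissue, fewer cells of a type and less RNA per cell cannot be told apart.

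The face grows from prominences filled with neural crest mesenchyme. Alx1 and Alx4 encode paired-type homeodomain proteins of the frontonasal and maxillary mesenchyme, whose loss in mice and people causes clefts and malformation of the midface and skull. Six2 encodes a homeodomain protein that works with EYA co-activators, Tfap2a and Tfap2b encode AP-2 factors of surface ectoderm and neural crest, and Pou3f3 encodes a POU homeodomain protein needed for upper jaw skeleton in mice. In the mandibular arch, endothelin signalling through Dlx5, Dlx6 and Hand2 gives lower jaw identity.

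Before the members' values, 2 features of the arrays have to be given. Knockout arrays 1 and 2 differed from all others in their excess of 3' over 5' signal for Gapdh and beta-actin, a measure that increases with RNA degradation. It was 1.13 ± 0.28 (log2, SD, n = 8), against 0.08 ± 0.06 on knockout arrays 3 and 4 and 0.18 ± 0.04 on control arrays (n = 8 each). The hybridisation controls averaged 11.52 ± 0.32, 8.92 ± 0.16 and 10.42 ± 0.37 on the same 3 array sets. All 8 control arrays were male by Xist and Kdm5d, whereas 4 of the 8 arrays in each knockout set were female. In knockouts 3 and 4 all parts of a number had 1 sex. In knockout 1 the proximal maxilla array was female and the other 3 were male, and in knockout 2 the proximal maxilla array was male and the other 3 were female, so the 4 parts of these numbers did not all come from a single embryo. Values given per number that use the maxilla of knockouts 1 and 2 combine both sexes, whereas their mean over both numbers does not depend on how the parts are numbered. Each set holds a single genotype, so the effects of set and genotype cannot be told apart. The brightest of the 3 Tgfbr1 probe sets had 12.07 to 12.64 on knockout arrays 1 and 2 and 12.32 to 12.52 on knockout arrays 3 and 4, against 11.98 to 12.69 on control arrays, and so overlapped. Of the dimmer ones, 1 had 5.42 to 6.62 and 6.28 to 7.07 on these knockout arrays, against 7.02 to 8.31 on control arrays, and the other had means of 5.10 and 7.63, against 7.03. Which exons they cover was not checked here, so they do not check the labels.

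The second feature concerns the labelled ends of the controls. Across the 13837 genes kept, the distal minus proximal difference in the mandible of the control libraries numbered 1 correlated at r = 0.48 with the mean of the 4 knockouts, whereas that of the control libraries numbered 2 correlated at r = -0.56. Each knockout number, set against the other 3 knockouts, lay between 0.43 and 0.62. In the maxilla the correlation with the knockouts was 0.47 for control 1 and -0.29 for control 2, and the 4 knockout numbers lay between 0.05 and 0.43. Controls 1 and 2 correlated with each other at -0.78 in the mandible and -0.35 in the maxilla. These are correlations across genes, which are not independent replicates. The libraries labelled distal and proximal of control number 2 therefore go against the other libraries, and the labels were kept as given. The maxilla minus mandible difference, taken over both ends, does not depend on which end is which: its correlations lay between 0.56 and 0.79 for all 6 genotype and number combinations. For the ends of the controls, the value of each control number is therefore given by itself, and the genotype differences printed for a single part are given with and without each control number. A fit without 1 control number leaves 1 control, so its spread comes from the knockouts alone and its adjusted p is not given.

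**Figure D1:**
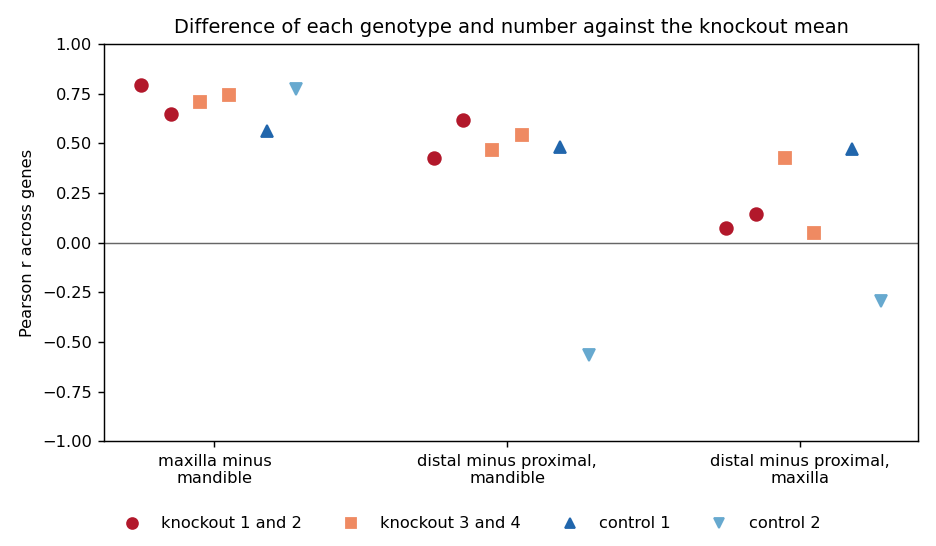
Pearson correlation, across 13837 genes, of the log2 difference of each genotype and number with the mean difference of the knockouts (the other knockouts, for a knockout), for the jaws, the ends of the mandible and the ends of the maxilla. Control number 2 lies below 0 for both pairs of ends (-0.56 and -0.29) and at 0.77 for the jaws.

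**Figure D2:**
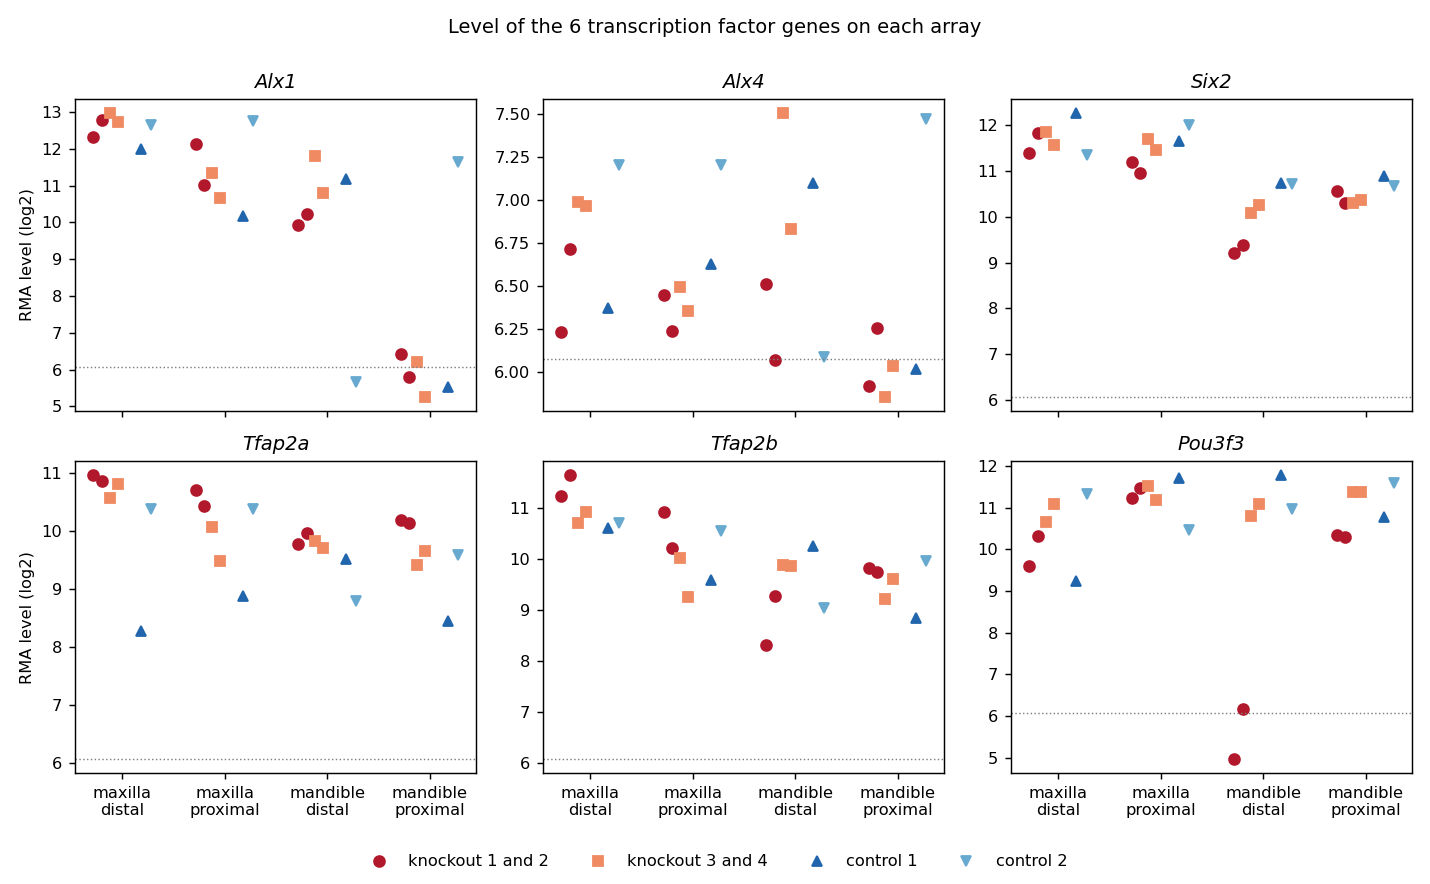
RMA level (log2) of each of the 6 genes on each of the 24 arrays, by jaw and end, with knockouts left of controls and the filter level as a dotted line. The y axes differ between genes and do not start at 0. Alx1 is low in the proximal mandible of knockouts and control 1, and in the library labelled distal mandible of control 2. Pou3f3 is lowest in the distal mandible of knockouts 1 and 2.

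Alx1 was the member with the largest span over the arrays, between 5.26 and 12.97 on the log2 scale. The gene lies on chromosome 10 (chr10:103007847-103029549, GRCm38.p6). In the distal maxilla its level was 12.32, 12.79, 12.97 and 12.72 in knockouts 1 to 4, against 11.98 and 12.63 in controls 1 and 2. In the proximal maxilla it was 12.14, 11.01, 11.35 and 10.66 in knockouts, against 10.17 and 12.76 in controls. The groups overlap in both parts of the maxilla. In the distal mandible it was 9.91, 10.24, 11.79 and 10.81 in knockouts, against 11.19 and 5.65 in controls. In the proximal mandible it was 6.42, 5.80, 6.19 and 5.26 in knockouts, against 5.52 and 11.64 in controls. All 4 knockouts and control 1 were thus high at the distal end of the mandible and near the filter level of 6.07 at the proximal end, and only the libraries labelled control 2 had the reverse. In the order of the 8 group means Alx1 was highest in the distal maxilla of knockouts (12.70 ± 0.28, SD, n = 4) and lowest in the proximal mandible of knockouts (5.92 ± 0.51, SD, n = 4), and all 7 pairs of neighbours in that order overlapped, the wide control groups included. Its other probe set followed it with r = 0.99 over the 24 arrays.

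Alx4 (chr2:93642434-93681341) had a single probe set, whose level lay between 5.86 and 7.51 and above the filter level on 19 of the 24 arrays, near the low end of the array's scale. The lowest, median and highest values were 6.23, 6.47 and 6.99 in the maxilla of knockouts, against 6.38, 6.92 and 7.21 in the maxilla of controls. In the mandible they were 5.86, 6.16 and 7.51 in knockouts, against 6.02, 6.59 and 7.47 in controls. All 7 neighbouring pairs in the order of its 8 groups overlapped. The 3 highest arrays were the distal mandible of knockout 3, the library labelled proximal mandible of control 2 and the library labelled proximal maxilla of control 2.

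Six2 (chr17:85662736-85688254) separated the jaws on every array. Its level in the distal maxilla was 11.39, 11.84, 11.85 and 11.57 in knockouts 1 to 4, against 12.27 and 11.34 in controls 1 and 2. In the proximal maxilla it was 11.19, 10.96, 11.69 and 11.47 in knockouts, against 11.66 and 12.02 in controls. In the distal mandible it was 9.22, 9.39, 10.09 and 10.26 in knockouts, against 10.73 and 10.73 in controls, and in the proximal mandible 10.56, 10.31, 10.31 and 10.37 in knockouts, against 10.89 and 10.67 in controls. The lowest maxilla array, at 10.96, stood above the highest mandible array, at 10.89, although these 2 came from different genotypes. In both ends of the mandible the knockout and control arrays did not overlap, with the knockouts lower. How many of all genes separate the genotypes in this way was not counted. In the order of its 8 group means, 4 of the 7 neighbouring pairs overlapped. The pairs that did not were the proximal maxilla of knockouts above the proximal mandible of controls, the distal mandible of controls above the proximal mandible of knockouts, and the proximal above the distal mandible of knockouts.

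The promoters of 4 of the 6 members are held in the RefSeq table (GRCm38.p6) as windows of 300 bases, with 250 bases before the start site and 50 after it. They were searched on both strands for motifs of the members' own families: the dimer motif of paired-type homeodomains such as ALX proteins (TAAT and ATTA with 3 bases between), the single palindrome TAATTA, the AP-2 motif GCCNNNGGC, TCAGGTTTC for Six2 and its relatives, and the POU octamer ATGCAAAT. No 2 of these motifs shared bases in the members' windows. Six2 held the first, which is found in 0.487% of the 32851 promoters in the table, and Tfap2a held TAATTA in 1 of its 2 windows, as do 5.29% of promoters. The AP-2 motif (16.6% of promoters), TCAGGTTTC (0.429%) and the octamer (1.74%) had no match in the 5 windows of members. A match is a description of the letters and shows no binding. Both windows with a match are shown 5′ to 3′ on the gene's strand, with the match in capitals.
Six2, chr17:85688205-85688504, minus strand: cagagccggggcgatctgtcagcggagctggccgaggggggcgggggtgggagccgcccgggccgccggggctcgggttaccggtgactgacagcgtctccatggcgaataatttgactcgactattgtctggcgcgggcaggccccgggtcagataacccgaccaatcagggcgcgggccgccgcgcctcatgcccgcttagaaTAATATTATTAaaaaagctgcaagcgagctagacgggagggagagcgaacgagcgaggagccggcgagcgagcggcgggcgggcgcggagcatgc
Tfap2a, chr13:40734871-40735170, minus strand: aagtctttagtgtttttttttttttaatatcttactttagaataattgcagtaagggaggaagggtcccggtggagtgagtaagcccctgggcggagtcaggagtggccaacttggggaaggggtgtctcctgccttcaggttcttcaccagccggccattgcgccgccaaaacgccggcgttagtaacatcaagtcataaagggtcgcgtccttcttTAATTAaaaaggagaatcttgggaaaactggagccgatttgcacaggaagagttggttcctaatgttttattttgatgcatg
The match begins 45 bases before the start site in Six2 and 32 bases before it in Tfap2a.

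Tfap2a (chr13:40713802-40738238) had its lowest mean over the 4 parts, 8.78, in control 1. In the distal maxilla its level was 10.96, 10.86, 10.57 and 10.80 in knockouts 1 to 4, against 8.27 and 10.38 in controls 1 and 2. In the proximal maxilla it was 10.71, 10.42, 10.06 and 9.48 in knockouts, against 8.88 and 10.38 in controls. On its brightest probe set the distal maxilla groups did not overlap, whereas the proximal ones did. At the distal end of the mandible it was 9.78, 9.97, 9.83 and 9.71 in knockouts, against 9.51 and 8.79 in controls, and in the proximal mandible 10.18, 10.13, 9.41 and 9.66 in knockouts, against 8.45 and 9.59 in controls. The distal mandible groups also did not overlap on this brightest probe set. How many of all genes separate the genotypes in this way was not counted. The 4 knockout groups stood above the 4 control groups in the order of means, from 10.80 ± 0.17 in the distal maxilla of knockouts (SD, n = 4) to 9.02 in the proximal mandible of controls (n = 2), and all 7 neighbouring pairs overlapped. Its other probe sets followed it with r = 0.97 and 0.77 over the 24 arrays.

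Tfap2b (chr1:19208908-19238845) was high in the distal maxilla, at 11.22, 11.63, 10.70 and 10.91 in knockouts 1 to 4, against 10.61 and 10.70 in controls 1 and 2. In the proximal maxilla it was 10.91, 10.22, 10.01 and 9.24 in knockouts, against 9.59 and 10.55 in controls. Its distal mandible values were 8.30, 9.27, 9.87 and 9.86 in knockouts, against 10.25 and 9.04 in controls. Knockouts 1 and 2 were the lower arrays there, and the genotypes overlapped. In the proximal mandible it was 9.82, 9.73, 9.22 and 9.61 in knockouts, against 8.84 and 9.95 in controls. The order of means ran from the distal maxilla of knockouts (11.12 ± 0.41, SD, n = 4) to the distal mandible of knockouts (9.32 ± 0.74, SD, n = 4), with overlap of all 7 neighbouring pairs.

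Pou3f3 (chr1:42695768-42700210) was high on 22 of the 24 arrays, at 9.24 or above, and low on the 2 others. In the distal mandible its level was 4.97, 6.17, 10.80 and 11.08 in knockouts 1 to 4, against 11.78 and 10.97 in controls 1 and 2. The arrays of knockouts 1 and 2 were the low ones, 1 of them below the filter level, and those of knockouts 3 and 4 lay at the controls' level. In the proximal mandible it was 10.34, 10.30, 11.37 and 11.38 in knockouts, against 10.78 and 11.60 in controls. In the distal maxilla it was 9.60, 10.32, 10.65 and 11.10 in knockouts, against 9.24 and 11.32 in controls, and in the proximal maxilla 11.22, 11.47, 11.52 and 11.19 in knockouts, against 11.71 and 10.47 in controls. All 7 neighbouring pairs in the order of its 8 groups overlapped. Its own second probe set, which followed it with r = 0.75, lay between 5.45 and 5.60 in the distal mandible of knockouts 1 and 2, between 6.49 and 6.88 in that of knockouts 3 and 4, and between 6.47 and 7.22 in that of controls. It had 5.81 to 6.15 in the proximal mandible of knockouts 1 and 2, a much smaller gap between the ends than that of the brighter probe set, at levels around the filter level. A probe set annotated to both Pou3f3 and a second gene, and so not used, lay between 5.05 and 5.47 in the distal mandible of knockouts 1 and 2, between 8.34 and 8.52 in that of knockouts 3 and 4, and between 8.33 and 9.26 in that of controls.

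Both genotypes were first asked for the difference between the upper and the lower jaw. Alx1, Six2, Tfap2b and Pou3f3 were higher in the maxilla than in the mandible of knockouts, averaged over both array sets. Six2 was also higher in the maxilla of controls. Of these genes only Six2 passed in both knockout array sets taken alone. Pou3f3 was higher in knockouts 1 and 2 only, with -0.00 and -0.08 in knockouts 3 and 4. All 6 members had a positive mean difference in knockouts and 5 of 6 in controls, where Pou3f3 was the exception. The comparison was fitted with limma on the 12 means of array set and part, over the 13837 genes, with a threshold of 0.05 on the Benjamini-Hochberg adjusted p. It called 7.71% of all genes in knockouts and 0.687% in controls, beside 4 and 1 of the 6 members. The median difference of the 6 was 1.24 in knockouts and 0.62 in controls, against 0.02 and 0.00 over all genes. The genes were chosen for their place in the upper face, so this direction restates what they are known for. After quantile normalisation the calls among all genes in knockouts were 507 higher and 601 lower in the maxilla, against 605 higher and 462 lower without it; the members' counts were the same.

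The maxilla minus mandible difference of Alx1 was 4.06, 3.88, 3.17 and 3.65 in knockouts 1 to 4, against 2.72 and 4.05 in controls 1 and 2. It averaged 3.69 ± 0.83 (SE, limma adjusted p = 0.0143) in knockouts and 3.39 ± 1.17 (adjusted p = 0.244) in controls. All 6 values were positive. With the ends of each jaw averaged first, an alternative chosen after the data were examined, the errors were 0.22 in knockouts and 0.32 in controls, with adjusted p = 0.00419 and 0.0329. In the fit of all arrays the knockout call was lost without any 1 knockout number (values between 3.57 and 3.81, adjusted p between 0.0822 and 0.210), in knockouts 1 and 2 only (3.97, adjusted p = 0.0592) and in knockouts 3 and 4 only (3.41, adjusted p = 0.272). The control value was 4.05 without control 1 and 2.72 without control 2. In a fit of the knockout arrays alone, also chosen afterwards, its adjusted p was 4.7e-06.

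For Six2 the difference was 1.41, 1.55, 1.57 and 1.21 in knockouts 1 to 4, against 1.15 and 0.98 in controls 1 and 2. It averaged 1.43 ± 0.12 (SE, adjusted p = 8.9e-06) in knockouts and 1.07 ± 0.17 (adjusted p = 0.0108, 2.10-fold) in controls. The 8 maxilla arrays of knockouts did not overlap their 8 mandible arrays, and the same held for the 4 and 4 control arrays. How many of all genes separate the jaws in this way was not counted. The knockout call stood in both array sets alone, with 1.48 in knockouts 1 and 2 and 1.39 in knockouts 3 and 4. The control call was lost when any 1 knockout number was left out of the shared spread (adjusted p between 0.0513 and 0.0718), with the same value of 1.07.

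Tfap2b, an AP-2 factor of the limbs, kidney and face, gave 2.00, 1.43, 0.81 and 0.34 in knockouts 1 to 4, against 0.55 and 1.12 in controls 1 and 2. All 6 values were positive. The mean was 1.15 ± 0.23 (SE, adjusted p = 0.00742, 2.21-fold) in knockouts and 0.84 ± 0.32 (adjusted p = 0.313) in controls. Within the array sets it was 1.72 ± 0.32 (adjusted p = 0.00713) in knockouts 1 and 2 and 0.58 ± 0.32 (adjusted p = 0.674) in knockouts 3 and 4. Without knockout 1, 3 or 4 in turn the adjusted p was 0.0535, 0.175 and 0.0838. The difference between the array sets, a comparison added after the data were examined that called 0.094% of all genes, was 1.14 ± 0.46 (adjusted p = 0.571).

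Tfap2a gave 0.85, 0.59, 0.69 and 0.45 in knockouts 1 to 4, against -0.41 and 1.19 in controls 1 and 2. Its mean of 0.65 ± 0.28 in knockouts did not pass (SE, adjusted p = 0.188), nor did 0.39 ± 0.40 in controls (adjusted p = 0.865). In the fit of the knockout arrays alone the error was 0.09 and the adjusted p 0.000805. The 2 controls lay on opposite sides of 0 and spanned the 4 knockouts, and without control 1 the control value was 1.19.

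Pou3f3 gave 2.76, 2.66, -0.00 and -0.08 in knockouts 1 to 4, against -0.80 and -0.39 in controls 1 and 2. Its mean of 1.33 ± 0.29 in knockouts passed (SE, adjusted p = 0.0121), but this mean joins 2 unlike pairs: 2.71 ± 0.41 (adjusted p = 0.00162) in knockouts 1 and 2 and -0.04 ± 0.41 (adjusted p = 0.999) in knockouts 3 and 4. In controls it was -0.60 ± 0.41 (adjusted p = 0.698). The difference between the 2 knockout array sets was 2.75 ± 0.58 (adjusted p = 0.110), and 2.75 ± 0.34 (adjusted p = 0.00434) with the knockout arrays alone. The positive difference thus rested on knockouts 1 and 2, the arrays with the high 3' excess. The knockout call stood with the 3' excess as a covariate in the fit of all arrays. Why the 2 knockout array sets differ was not tested. The call was lost without any 1 knockout number (adjusted p between 0.0540 and 0.195). Alx4 gave between 0.06 and 0.32 in knockouts and -0.06 and 0.42 in controls, with a mean of 0.18 ± 0.21 in knockouts (adjusted p = 0.662) and 0.18 ± 0.30 in controls (adjusted p = 0.949).

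**Figure D3:**
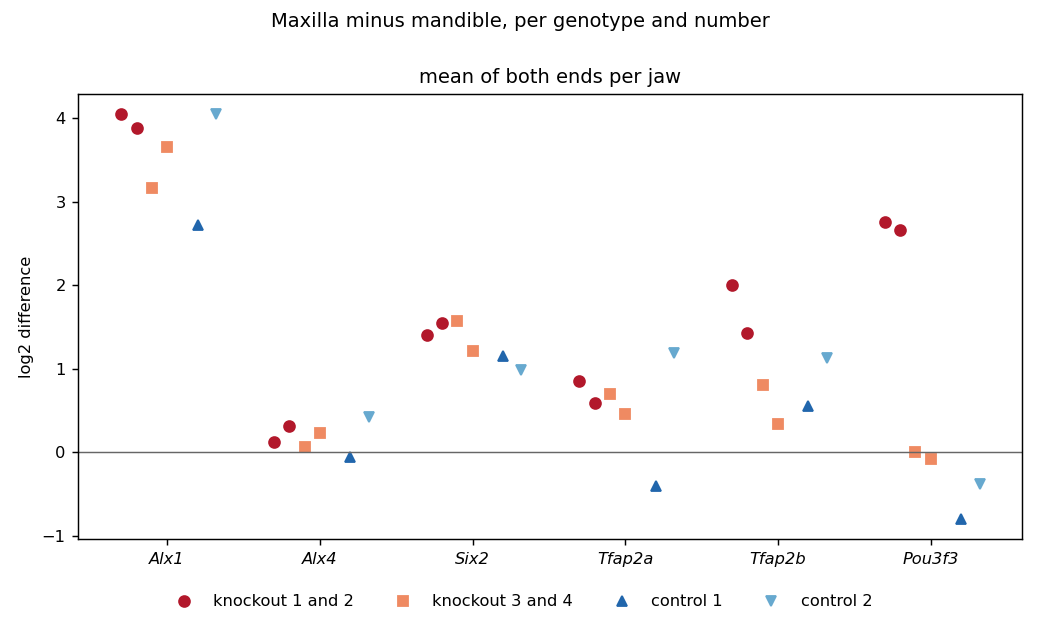
Maxilla minus mandible difference (log2) of each gene, with both ends averaged, for each knockout number and each control number. Alx1 and Six2 lie above 0 in all 6, and Pou3f3 lies at 2.76 and 2.66 in knockouts 1 and 2 and at or below 0 in the other numbers.

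Whether the jaw difference itself differed between the genotypes was tested as an interaction, which called 0% of all genes and 0 of the 6 members with limma; 1 member, Pou3f3, had an unadjusted p under 0.05. The knockout minus control value was 0.30 ± 1.44 for Alx1, -0.00 ± 0.37 for Alx4, 0.36 ± 0.21 for Six2, 0.25 ± 0.49 for Tfap2a, 0.31 ± 0.40 for Tfap2b and 1.93 ± 0.50 for Pou3f3 (SE, adjusted p = 0.709 for Pou3f3 and above it for the others). The intervals are wide: for Alx1 the 95% interval ran from -2.77 to 3.37, and for Six2 from -0.08 to 0.81. Without control 2 the value was 1.05 for Tfap2a and 2.13 for Pou3f3.

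Markers of other tissues also differed between the jaws, in a comparison that called 7.71% of all genes in knockouts. In knockouts 5 of 9 neuron markers were higher in the maxilla (median of the list 1.66), as were both of the brain and eye markers kept, Lhx2 (3.19) and Otx2 (3.75), and 4 of 6 skeletal muscle markers were lower (median -3.18). Of 15 epithelium markers 1, Epcam, was higher (0.80). The part of these tissues in the members' jaw differences was not tested. Among facial mesenchyme markers 2 of 7 were higher in the maxilla, Prrx2 and Col1a2.

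The ends of each jaw were compared next. In the mandible of knockouts, Pou3f3 was lower at the distal than at the proximal end and passed the test, and Alx1 had the largest difference of the 6, higher distally, without passing. No fold is given for Alx1, whose proximal values lie around the filter level. The limma comparison called 1.09% of all genes and 1 of the 6 members. Alx1 gave 3.49, 4.44, 5.60 and 5.54 in knockouts 1 to 4, against 5.67 and -5.99 in controls 1 and 2. All 4 knockouts and control 1 lay on the same side, at 3.49 or above. The mean was 4.77 ± 1.17 in knockouts (SE, adjusted p = 0.0757) and, over libraries of opposite direction, -0.16 ± 1.66 in controls (adjusted p = 1.00). With the knockout arrays alone the same 4.77 had an error of 0.32 (adjusted p = 4.9e-05). Without control 2 the control value was 5.67, and without control 1 it was -5.99, so the sign of the control difference rests on which control is kept.

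Pou3f3 gave -5.37, -4.13, -0.57 and -0.31 in knockouts 1 to 4, against 1.00 and -0.64 in controls 1 and 2. All 4 knockout values were negative, and those of knockouts 1 and 2 were far larger than the others. The mean of -2.59 ± 0.41 passed (SE, adjusted p = 0.00720), with -4.75 ± 0.58 (adjusted p = 0.000950) in knockouts 1 and 2 and -0.44 ± 0.58 (adjusted p = 1.00) in knockouts 3 and 4. The call was lost without knockout 1, 3 or 4 in turn (adjusted p between 0.141 and 0.305). The difference between the array sets was -4.32 ± 0.82 (adjusted p = 0.121, in a comparison added after the data were examined that called 0.0361% of all genes), and -4.32 ± 0.48 (adjusted p = 0.00379) with the knockout arrays alone. In controls the value was 0.18 ± 0.58 (adjusted p = 1.00).

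Six2 gave -1.34, -0.92, -0.21 and -0.11 in knockouts 1 to 4, against -0.16 and 0.06 in controls 1 and 2. Its mean in knockouts was -0.64 ± 0.17 (SE, adjusted p = 0.104; 0.0138 with the knockout arrays alone). Alx4 gave 0.59, -0.18, 1.65 and 0.79 in knockouts and 1.08 and -1.38 in controls, with a knockout mean of 0.71 ± 0.30 (adjusted p = 0.403; 0.0431 with the knockout arrays alone). Alx1 and Alx4 were both opposed in sign between the 2 controls. Tfap2a gave -0.40, -0.16, 0.42 and 0.05 in knockouts and 1.06 and -0.79 in controls, with a knockout mean of -0.02 ± 0.40. Tfap2b gave -1.52, -0.46, 0.65 and 0.25 in knockouts and 1.40 and -0.91 in controls, with a knockout mean of -0.27 ± 0.32. Neither passed, and both had values on either side of 0 in each genotype. In controls 0% of all genes and 0 of the 6 members were called with limma between the ends of the mandible, with 0 members at an unadjusted p under 0.05.

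In the maxilla of knockouts 0.065% of all genes and 0 of the 6 members were called between the ends with limma; Tfap2b and Pou3f3 had an unadjusted p under 0.05. The distal minus proximal value of Tfap2b was 0.31, 1.42, 0.68 and 1.67 in knockouts 1 to 4, against 1.02 and 0.15 in controls 1 and 2, with a mean of 1.02 ± 0.32 in knockouts (SE, adjusted p = 0.484) and 0.58 ± 0.46 in controls. All 6 values were positive, control 2 included. Tfap2a gave 0.25, 0.44, 0.51 and 1.32 in knockouts, against -0.61 and 0.00 in controls, with a mean of 0.63 ± 0.40 in knockouts (adjusted p = 0.941; 0.0403 with the knockout arrays alone). Alx1 gave 0.18, 1.78, 1.62 and 2.05 in knockouts, against 1.82 and -0.13 in controls. Six2 gave 0.20, 0.88, 0.15 and 0.10 in knockouts, against 0.61 and -0.68 in controls, and Alx4 -0.21, 0.47, 0.50 and 0.61 in knockouts, against -0.25 and -0.00 in controls. Pou3f3 was lower distally in all 4 knockouts, by 1.63, 1.14, 0.87 and 0.10 on the log2 scale, and had -2.47 and 0.85 in controls 1 and 2. Without control 2, the control difference of Pou3f3 was -2.47. In the fit of both controls 0% of all genes and 0 of the 6 members passed with limma, with 0 at an unadjusted p under 0.05.

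**Figure D4:**
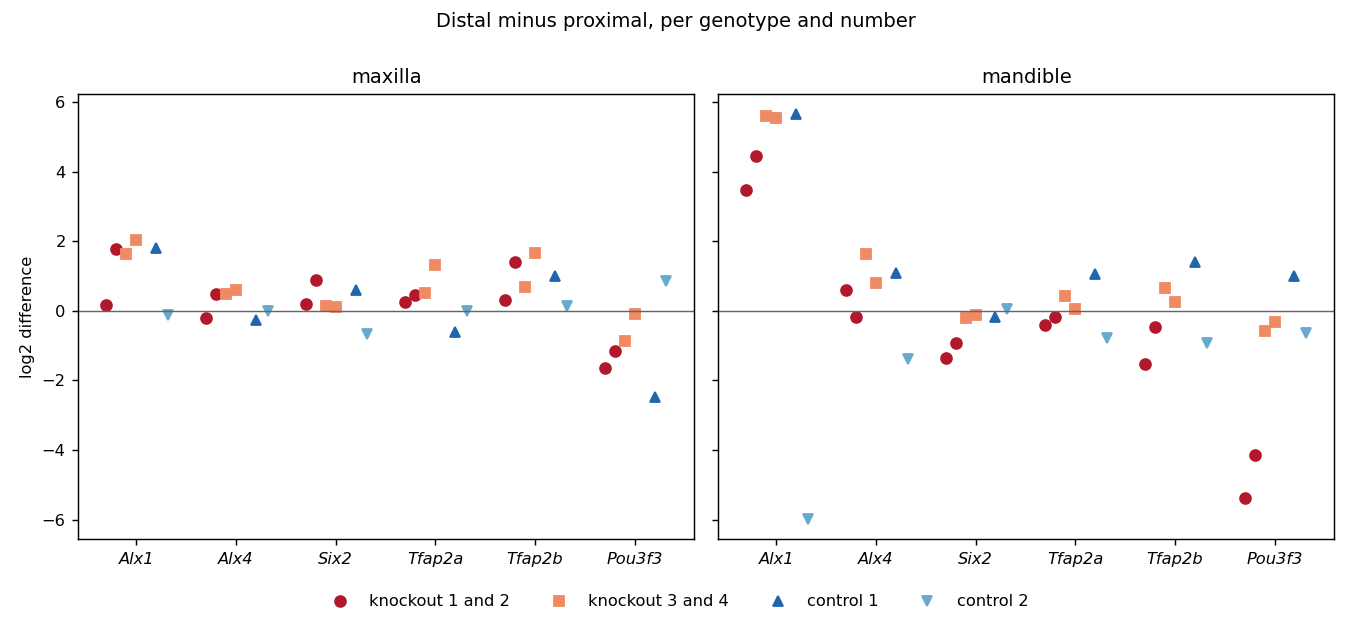
Distal minus proximal difference (log2) of each gene in the maxilla and in the mandible, for each knockout number and each control number. In the mandible Alx1 lies at 3.49 or above in the 4 knockouts and control 1 and at -5.99 in control 2, and Pou3f3 lies at -5.37 and -4.13 in knockouts 1 and 2.

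The end difference was also set between the jaws. In knockouts the maxilla minus mandible value of the end difference was -3.36 ± 1.66 for Alx1 (SE, adjusted p = 0.832), 0.98 ± 0.24 for Six2 (adjusted p = 0.142) and 1.66 ± 0.58 for Pou3f3 (adjusted p = 0.481). The comparison called 0.26% of all genes and 0 of the 6 members with limma (17 genes higher and 19 lower, or 14 and 10 with each array centred on its median), with Six2, Tfap2b and Pou3f3 at an unadjusted p under 0.05. With the knockout arrays alone, a fit added after the data were examined, Alx1, Six2 and Pou3f3 passed, with adjusted p = 0.00540, 0.0226 and 0.0414. The share of all genes called in that fit is not given here. Alx1 thus differed more between the ends of the mandible than between those of the maxilla in that fit, where its maxilla levels were high at both ends. In controls the same comparison called 0% of all genes and 0 of the 6 members, with 0 at an unadjusted p under 0.05. The control value was 5.86 for Alx1 without control 1 and -3.47 for Pou3f3 without control 2. The end difference in knockouts minus that in controls called 0% of all genes in the maxilla and 0.0145% in the mandible, with 0 members in either; in the mandible it was 4.93 ± 2.03 for Alx1 and -2.77 ± 0.71 for Pou3f3 (adjusted p = 1.00 and 0.518), both with an unadjusted p under 0.05. Without control 2 the Pou3f3 value was -3.59, and without control 1 the values were 10.76 for Alx1 and 2.10 for Alx4. Between the array sets the end difference in the maxilla called 0% of all genes and 0 members.

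Knockouts and controls were compared over the mean of the 4 parts, which does not depend on the labelled ends. Six2 was lower and Tfap2a higher in all 4 knockout numbers than in both controls, without passing the test. With limma on 4 knockout and 2 control means, 0% of all genes and 0 of the 6 members were called, with 965 genes and 2 members at an unadjusted p under 0.05. The mean of Six2 over the parts was 10.59, 10.63, 10.99 and 10.92 in knockouts 1 to 4, against 11.39 and 11.19 in controls 1 and 2, a difference of -0.51 ± 0.16 (SE, adjusted p = 0.699). The mean of Tfap2a was 10.41, 10.35, 9.97 and 9.92 in knockouts, against 8.78 and 9.79 in controls, a difference of 0.88 ± 0.31 (adjusted p = 0.706). The genotypes did not overlap for either gene, measured by its brightest probe set, and knockouts 1 and 2 were farther from the controls than knockouts 3 and 4. How many of all genes separate the genotypes in this way was not counted.

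For the others, the mean of Pou3f3 was 9.03, 9.57, 11.08 and 11.19 in knockouts, against 10.88 and 11.09 in controls, with a difference of -0.77 ± 0.68 (adjusted p = 0.717). Only knockouts 1 and 2 lay below the controls. The difference was -0.04 ± 0.32 for Alx1, -0.30 ± 0.19 for Alx4 and 0.09 ± 0.13 for Tfap2b (SE), with adjusted p between 0.706 and 0.960. The 95% interval for Alx1 ran from -0.83 to 0.75 and that for Tfap2b from -0.23 to 0.42.

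Each knockout array set was then compared with the same 2 controls. In knockouts 1 and 2, Six2 was lower by 0.68 ± 0.09 (difference -0.68, SE, adjusted p = 0.00482, 0.623-fold), Pou3f3 lower (-1.68 ± 0.20, adjusted p = 0.00355) and Tfap2a higher (1.09 ± 0.34, adjusted p = 0.0476, 2.14-fold). These 3 of 6 members stand beside 52.6% of all genes called in that set, so the count is close to the background. Of those genes 2897 were higher and 4382 lower, against 4248 higher and 3556 lower after quantile normalisation. Alx4 (-0.46 ± 0.17, adjusted p = 0.0720) did not pass, but did with each array centred on its median (-0.54, adjusted p = 0.0437) and in 1 fit of all 6 means (adjusted p = 0.0462). Alx1 (-0.11 ± 0.33) and Tfap2b (0.20 ± 0.11) did not pass. The RNA excess of 3' signal moved with this contrast (1.13 in these knockouts, 0.18 in controls), and with it as a covariate 0 members were called and the Pou3f3 value was 2.35 ± 0.91 (adjusted p = 1.00). With the sex of the arrays as a covariate 1 member, Pou3f3, was called. The Tfap2a call was also lost without knockout 1 or knockout 2 (adjusted p = 0.216 and 0.183) and with the mean of its probe sets (0.82, adjusted p = 0.0720). Without control 1 the difference was -0.59 for Alx1 and -0.69 for Alx4.

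In knockouts 3 and 4, with their low 3' excess, 1.56% of all genes and 0 of the 6 members were called with limma; 1 member, Six2, had an unadjusted p under 0.05. The differences from the same controls were -0.34 ± 0.09 for Six2 (SE, adjusted p = 0.122, 0.791-fold), 0.66 ± 0.35 for Tfap2a (adjusted p = 0.301, 1.58-fold), 0.15 ± 0.10 for Pou3f3 (adjusted p = 0.364), 0.03 ± 0.41 for Alx1, -0.13 ± 0.18 for Alx4 and -0.01 ± 0.10 for Tfap2b. Measured by the brightest probe set of each gene, Six2 and Tfap2a had the sign they had in knockouts 1 and 2, and Pou3f3 the opposite sign. The dimmest Tfap2a probe set did not share this sign in all parts. In knockouts 3 and 4 it had 6.44 to 6.50 in the distal mandible, below 6.54 to 7.12 in controls. In the proximal maxilla it had 6.47 to 6.49, below 6.61 to 7.46 in controls. In the distal maxilla and proximal mandible it lay within the range of controls. Without control 2 the difference was -0.44 for Six2 and 1.16 for Tfap2a. Control 1 had the lowest mean Tfap2a level of the 6 numbers, at 8.78.

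**Figure D5:**
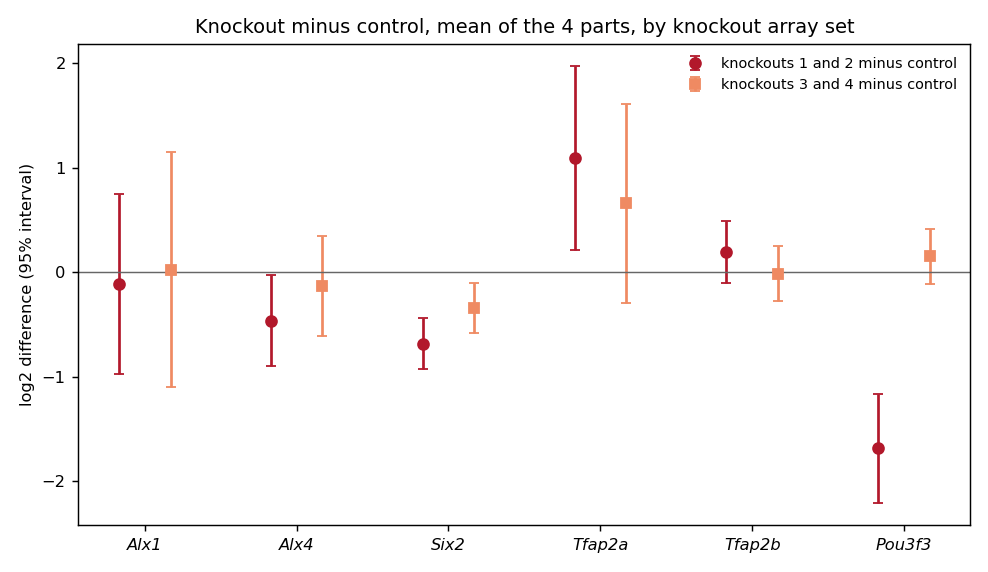
Knockout minus control difference (log2, mean of the 4 parts) of each gene with its 95% interval, for knockouts 1 and 2 (circles) and knockouts 3 and 4 (squares), each against the same 2 controls. Six2 lies below 0 and Tfap2a above 0 in both sets, and Pou3f3 lies at -1.68 in knockouts 1 and 2 and at 0.15 in knockouts 3 and 4.

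Within single parts, knockout minus control was fitted on the 8 group means and called 0.00723% of all genes in the distal maxilla, 0.00723% in the proximal maxilla, 0.0145% in the distal mandible and 0% in the proximal mandible, with 0 of the 6 members in each. In the distal mandible that is 1 gene higher and 1 lower, or 2 and 14 with each array centred on its median. An unadjusted p under 0.05 was reached by 1 member in the distal maxilla, 2 in the distal mandible and 0 in either proximal part. In the distal mandible Six2 was -0.99 ± 0.28 (SE, adjusted p = 0.281) and Pou3f3 -3.12 ± 1.21 (adjusted p = 0.438). Without control 1 they were -0.99 and -2.71, and without control 2 -0.99 and -3.52. With array set in the model, both passed there (Six2 ± 0.21, adjusted p = 0.00566; Pou3f3 ± 0.50, adjusted p = 0.00175). That passage came from knockouts 1 and 2, with -5.80 ± 0.58 for Pou3f3 (adjusted p = 1.5e-05) and -1.43 ± 0.24 for Six2 (adjusted p = 0.000263). In knockouts 3 and 4 Pou3f3 had -0.43 ± 0.58 (adjusted p = 0.831) and Six2 -0.55 ± 0.24 (adjusted p = 0.352).

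Tfap2a in the distal maxilla was 1.47 ± 0.49 (SE, adjusted p = 0.827), without control 1 it was 0.41, and without control 2 it was 2.53. Alx1 had 2.27 ± 1.32 in the distal mandible (adjusted p = 0.539) and -2.66 ± 1.32 in the proximal mandible (adjusted p = 0.673). These 2 values have opposite signs because the library labelled distal of control 2 was low and the one labelled proximal was high: without control 1 they were 5.04 and -5.72. Without control 2 they were -0.50 and 0.40. No direction of Alx1 between the genotypes within an end of the mandible can therefore be read from these arrays.

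Markers of other cells were read beside the genotype comparison. All 15 epithelium markers kept lay above 0 in knockouts over the 4 parts (median 0.40), 0 of them called, and 5 of the 15 were called higher in knockouts 1 and 2 and 0 in knockouts 3 and 4, beside 52.6% and 1.56% of all genes. The median of the list was 0.28 in knockouts 1 and 2 (14 of 15 above 0) and 0.52 in knockouts 3 and 4 (13 of 15 above 0), against -0.06 and -0.03 over all genes. Their mean level per array ran from 9.65 to 10.45 in knockouts 1 and 2 and from 9.94 to 10.60 in knockouts 3 and 4, against 9.13 to 10.45 in controls. Tfap2a is expressed in surface ectoderm, and the part of epithelium in its difference was not tested. Of 7 facial mesenchyme markers, 5 were lower in knockouts 1 and 2 (array means of the list between 11.68 and 12.36, against 12.30 to 12.77 in controls) and 0 in knockouts 3 and 4 (12.49 to 12.73), beside the same shares of all genes. In knockouts 1 and 2 all 5 erythroid markers kept were higher (median 1.73), 7 of 8 endothelium markers were lower and 1 higher (median -0.64), and 0 of 6 skeletal muscle markers were called (median -0.78). In knockouts 3 and 4 these medians were -0.34, -0.09 and -0.30. Their part in the members' differences was not tested.

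Over the 24 arrays, with the mean of each array set removed, the correlations between members are given as descriptions. The correlation was 0.76 for Six2 with Tfap2b, 0.75 for Alx1 with Alx4, 0.73 for Tfap2a with Tfap2b, 0.68 for Alx1 with Tfap2b, 0.66 for Alx4 with Tfap2a and 0.62 for Alx1 with Tfap2a. It was lowest for Alx1 with Pou3f3 (-0.04). The arrays share 4 parts, and which of them share embryos is not given, so they are not taken as 24 independent points.

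The genes most like each member by the same measure were named as follows. Pax3, a paired homeodomain gene of the neural crest and the nose, was the most like Alx1 (r = 0.94), before Lrrn3 (0.92) and Hpse2 (0.91). Pax3 too was higher at the distal than at the proximal end of the knockout mandible. In knockouts 3 and 4 it lay between 10.33 and 10.75 distally and between 6.38 and 6.43 proximally, and in knockouts 1 and 2, with a smaller gap, between 8.59 and 9.01 distally and between 7.43 and 8.19 proximally. Lhx2, a LIM homeodomain gene of the forebrain, eye and olfactory epithelium, was the most like Six2 (0.92), before Tnfrsf21 (0.92) and Tmem30b (0.92). The most like Pou3f3 was Pantr1 (0.91), a long noncoding RNA gene that lies beside it (chr1:42648200-42694825), before the Iroquois genes Irx5 (0.90) and Irx3 (0.88). Pantr1 in the distal mandible lay between 6.65 and 6.81 in knockouts 1 and 2 and between 9.65 and 9.66 in knockouts 3 and 4, against 10.25 to 11.41 in controls. Irx5 lay between 8.38 and 9.03, between 10.07 and 10.15, and between 10.32 and 10.36 in the same groups. Alpl, Focad and Epdr1 (0.88 to 0.89) were most like Alx4. Abcg5 (0.92), Stx18 (0.91) and Ttpa (0.89) were most like Tfap2a, and Cpxm2 (0.91), Pqlc3 (0.90) and Pygl (0.90) most like Tfap2b.

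Relatives of the members in the same gene families were followed too, 7 of 13 of which were kept by the filter. In the jaw comparison 2 of the 7 were higher in the maxilla of knockouts and 0 lower, beside 7.71% of all genes called. They were Six3, a factor of forebrain and eye (2.00 ± 0.26, SE, adjusted p = 0.000383), and Six4 (0.53 ± 0.12, adjusted p = 0.0136). Six3 was also higher in the maxilla of controls (1.75 ± 0.37, adjusted p = 0.0464). Of 11 genes for partners of the members' proteins (the Eya, Dach and Cited families and Sobp among them), 4 were higher in the maxilla of knockouts and 0 lower. They were the EYA co-activator genes Eya1 (1.22 ± 0.18, adjusted p = 0.000778), Eya4 (0.68 ± 0.14, adjusted p = 0.00914) and Eya2 (0.99 ± 0.21, adjusted p = 0.0101), and Cited2, a co-activator of AP-2 factors (0.33 ± 0.09, adjusted p = 0.0445). In controls 0 of the 11 passed, with 1.29 ± 0.29 for Eya2 (adjusted p = 0.0677). The medians over the tested relatives and partners were 0.23 and 0.33 in knockouts, against 0.02 over all genes.

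Genes of lower jaw patterning ran the other way. Of 10 tested, 9 were lower in the maxilla of knockouts and 0 higher (median -1.31), and 3 were lower in that of controls (median -0.92). The shares of all genes called were 7.71% in knockouts and 0.687% in controls. Hand2, a basic helix-loop-helix factor of the lower jaw, differed by -4.33 ± 0.35 in knockouts (SE, adjusted p = 8.5e-06) and -4.08 ± 0.49 in controls (adjusted p = 0.00207). Dlx5 (-1.28 ± 0.13) and Dlx6 (-2.01 ± 0.22) passed in both genotypes, and Gsc (-1.50 ± 0.23) in knockouts. Of 17 upper face genes, 2 were higher in the maxilla of knockouts, Prrx2 (1.01 ± 0.15, adjusted p = 0.000999) and Pax9 (0.83 ± 0.21, adjusted p = 0.0240), and Dlx1 was lower (-0.96 ± 0.26, adjusted p = 0.0366). The list's median was 0.16 in knockouts and 0.06 in controls, where 0 of the 17 passed with limma.

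Between the ends, 1.09% of all genes were called in the mandible of knockouts and 0.065% in the maxilla. Of 11 partners 1, Dach2, was lower in the distal mandible of knockouts (-1.33 ± 0.17, SE, adjusted p = 0.00149), as was 1 of 7 relatives, Six5 (-0.31 ± 0.07, adjusted p = 0.0482). Lower jaw genes were divided there, with Hand1 higher distally (0.77 ± 0.17, adjusted p = 0.0377) and Gbx2 (-3.28 ± 0.43, adjusted p = 0.00162), Dlx5 (-1.05 ± 0.19, adjusted p = 0.0144) and Dlx4 (-2.09 ± 0.44, adjusted p = 0.0356) lower. In the maxilla of knockouts, 3 upper face genes were lower at the distal end: Dlx1 (-2.76 ± 0.37, adjusted p = 0.00633), Lhx6 (-3.10 ± 0.45, adjusted p = 0.0141) and Dlx2 (-1.58 ± 0.25, adjusted p = 0.0298). Barx1, a factor of the proximal jaw and molar field, was lower there too (-2.55 ± 0.41, adjusted p = 0.0298). None of the 6 members passed in that comparison.

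In the genotype comparison over the 4 parts, 0 genes of these 4 lists were called with limma, as for all genes. In knockouts 1 and 2 the calls were 2 higher and 1 lower of 7 relatives, 1 higher and 1 lower of 11 partners, 2 higher and 5 lower of 17 upper face genes, and 1 higher and 3 lower of 10 lower jaw genes, all shares below the 52.6% of all genes called there. Named among them are Tfap2c, the third AP-2 gene of surface ectoderm (1.42 ± 0.24, SE, adjusted p = 0.00879), Cited4 (1.27 ± 0.18, adjusted p = 0.00544), Eya1 (-0.35 ± 0.08, adjusted p = 0.0223), Shox2 (-1.58 ± 0.07, adjusted p = 0.00148), Lhx6 (-1.04 ± 0.12, adjusted p = 0.00331) and Foxd1 (1.08 ± 0.17, adjusted p = 0.00734). In knockouts 3 and 4 the calls were Sobp, the sine oculis binding protein gene (-0.88 ± 0.06, adjusted p = 0.0345), and Gsc (-0.64 ± 0.06, adjusted p = 0.0486). Tfap2c had 0.87 ± 0.26 there (adjusted p = 0.145), the same sign as Tfap2a. Gsc was also lower in knockouts 1 and 2 (-0.45 ± 0.07, adjusted p = 0.00783), against the same controls.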

How the data were processed

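The deposited table holds log2 expression per probe set of Affymetrix Mouse430_2 arrays, which the authors computed by RMA according to their deposited processing notes; the RMA version and whether all arrays were normalised together are not given in the sources used here. Of its 45101 probe sets, 64 are controls, 34945 carry 1 gene symbol, 932 several and 9160 none; 34741 matched RefSeq (GRCm38.p6), with 0 symbols changed. The brightest probe set stood for each of 18193 genes, and 13837 genes above the 40th percentile (log2 of 6.07) on at least 2 of 24 arrays were tested.

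Tests were 2-sided and used R 4.3.3 with limma 3.58.1, with lmFit and then eBayes without a trend, adjusted over all genes kept by the Benjamini-Hochberg method, and were tested on simulated data first. Genotypes over the 4 parts were compared on means per genotype and number, parts on 8 group means, and jaws, ends and interactions on 12 means of array set and part. Array sets were split by hybridisation and RNA quality controls. Promoter windows came from RefSeq. Array medians lay between 6.76 and 6.89, and the number of arrays limits precision.

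Named were the members, the 3 genes most like each (Pearson r over 24 arrays, set means removed), and up to 4 genes with the smallest p per list and comparison. Members and lists were chosen with earlier results of these data known. Comparisons between knockout array sets, and the fits with ends averaged first, crossed numbers or knockout arrays only, were added after the data were examined.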

Additional observations from a re-analysis of the deposited data

Results flagged for a closer look

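Among 48 sets of 4 knockout values (each member in each part, and its differences per number), 2 held a value far from the other 3; chance gives about 1 in 20 such sets. The distal minus proximal difference of Alx4 in the maxilla was -0.21 in knockout 1, against 0.47 to 0.61 in the other 3. That of Six2 in the maxilla was 0.88 in knockout 2, against 0.10 to 0.20 in the other 3. In both numbers the distal and the proximal maxilla array were of opposite sex.

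With the knockout arrays alone, 5 tests of a difference between differences passed. The share of all genes called in that fit, which was added after the data were examined, is not given here. The end difference in the maxilla minus that in the mandible was -3.36 for Alx1, 0.98 for Six2 and 1.66 for Pou3f3 (limma adjusted p = 0.00540, 0.0226 and 0.0414). Between knockouts 1 and 2 and knockouts 3 and 4, the jaw difference of Pou3f3 differed by 2.75 (adjusted p = 0.00434) and its end difference in the mandible by -4.32 (adjusted p = 0.00379). In the fit of all arrays none of the 5 passed.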

How the results depend on the processing

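Of 2118 values of the 126 member differences under the alternatives, 2013 kept their side of the threshold, 32 lost a call, 70 gained one and 3 changed sign with a call at stake. Some of the 70 came from fits without 1 control number, whose spread comes from the knockouts alone. In 106 of the 2013 the sign changed where neither value passed. The 3 were Alx1 between the ends of the control mandible without control 2 (5.67, and -5.99 without control 1), Pou3f3 in knockouts 1 and 2 with the RNA quality covariate (2.35) and Pou3f3 between the jaws in knockouts 3 and 4 only (-0.044). The causes were not tested.

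Members called changed as follows under the planned and added alternatives, leave-outs apart. The number of all genes called changed with them too, as given in the last paragraph. The members' counts by themselves are therefore not read as results about the members. With the replicate block, which for genotype draws on numbers 1 and 2 only, 3 members were called over the 4 parts, 1 in the distal maxilla and 2 in the distal mandible. It changed the number of members called in no other comparison. Whether replicate numbers pair the samples was not settled: correlations of same-numbered deviations ran from -0.68 to 0.58 among control parts, from -0.31 to 0.22 in knockouts 1 and 2, from 0.07 to 0.35 in knockouts 3 and 4, and from -0.50 to 0.22 between genotypes. All were positive in knockouts 3 and 4, where all parts of a number had 1 sex. Among controls the negative ones all involved the distal mandible (-0.68, -0.43 and -0.37), and the others ran from 0.26 to 0.58. In knockouts 1 and 2 the negative ones all involved the proximal maxilla (-0.31, -0.14 and -0.14), and the others ran from 0.15 to 0.22. Crossed numbers exchanged 1 and 2 in the control distal mandible and in the proximal maxilla of knockouts 1 and 2. These are the parts with the negative correlations. With crossed numbers 2 members were called between control jaws, 5 between knockout jaws and 2 between the ends of the knockout mandible. In knockouts 1 and 2 against control, 0 were called with the RNA quality covariate, 1 with the sex covariate, 2 with the mean of all probe sets, and 4 with arrays centred on their medians or in 1 fit of 6 means. The 12 means gave 2 in the distal mandible, and the 8 group means 0 between control jaws, 3 between knockout jaws and 0 between the ends of the knockout mandible. Ends averaged first gave 2 between control jaws. Knockouts 1 and 2 only gave 3 between the jaws, 2 between the ends of the mandible, 1 in the distal maxilla, 1 in the proximal maxilla, 2 in the distal mandible, 1 for the jaw difference between genotypes and 1 for the end difference between genotypes in the mandible. Knockouts 3 and 4 only gave 1 between the jaws and 0 between the ends of the mandible. Knockout arrays only gave 5 between the jaws, 1 between the ends of the maxilla, 4 between those of the mandible, 3 for the end difference between jaws, and 1 each for the jaw and mandible end differences between the knockout array sets.

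Leaving out 1 number at a time gave 0 to 3 members between control jaws, 1 to 5 between knockout jaws, 0 to 1 between the ends of either control jaw, 0 to 1 between the ends of the knockout maxilla and 0 to 4 between those of the knockout mandible. It gave 2 to 5 in knockouts 1 and 2, 0 to 2 in knockouts 3 and 4, 0 to 1 in the distal maxilla, the distal mandible and the proximal mandible, 0 to 1 for the end difference between control jaws and 0 to 3 between knockout jaws. It gave 0 to 2 for the jaw difference between genotypes, 0 to 2 for the end difference between genotypes in the mandible, and 0 to 1 for both differences between the knockout array sets. Fits without 1 control number are among these leave-outs, here and below, and their calls hold no spread between controls.

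Genes called over all alternatives, leave-outs included, varied as follows. Over the 4 parts there were 0, but 6393 with the replicate block and 679 with the RNA quality covariate. Knockouts 1 and 2 had 7279, but 4038 without knockout 1, 2522 when adjusted for sex and 0 when adjusted for RNA quality. Knockouts 3 and 4 had 216, but 0 to 1378, the highest without control 2. Single parts had 0 to 2, but up to 5723, 4987, 6722 and 5981 in the distal maxilla, proximal maxilla, distal mandible and proximal mandible, with the replicate block or knockouts 1 and 2 only. Control jaws had 95, but 13 to 395, and knockout jaws 1067, but 91 to 1579. The ends of the knockout mandible had 151, but 2 to 431, and those of the knockout maxilla 9, but 1 to 1168. Those of the controls had 0, but 327 in the maxilla without control 2 and 59 in the mandible without control 1. Other differences between differences had 0 to 36, but up to 828.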
